A study of Mus musculus with 36 samples.

Results

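The integrated stress response and amino acid supply genes are a group of 32 mouse genes linked to the transcription factor Atf4. They were taken as a fixed list of gene symbols, matched to Ensembl gene identifiers, and not from any measured value. Of the 32, 31 were in the Jag1 loss table, 32 in each Dll4 loss table, 28 in the Dll4 gain table, 28 in the Efnb2 loss table and 28 in all 5. These tables, described next, hold 13982, 14302, 13897, 13737 and 13527 genes, with 13045 in common. No value is given for Slc7a11 after Jag1 loss, or for Chac1, Cth, Slc7a3 and Slc7a11 after Dll4 gain and Efnb2 loss, since those tables hold no row for them.

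The study followed coronary vessel formation in mouse embryos after the loss or gain of Notch ligands, or the loss of the arterial ligand Efnb2, in cells that line the heart and its vessels. RNA was sequenced from 36 libraries in 5 experiments, each with mutant libraries and WT libraries of its own. At E12.5, whole hearts were pooled, 4 embryos to a library, from Jag1flox;Nfatc1-Cre mutants (labelled Jagged1Flox;Nfatc1-Cre, n = 4, with 4 WT libraries) and from Dll4flox;Nfatc1-Cre mutants (labelled Delta4Flox;Nfatc1-Cre, n = 2, with 4 WT libraries). At E15.5, ventricles were pooled, 3 embryos to a library, from Dll4flox;Cdh5-CreERT2 mutants (labelled D4Cdh5-CreER, n = 3, with 4 WT libraries) and from Dll4GOF;Tie2-Cre embryos (n = 3, with 4 WT libraries). At E16.5, each library was the ventricles of a single embryo, from Efnb2flox;Nfatc1-Cre mutants (n = 4) and WT embryos (n = 4). The loss-of-function mutants carry floxed alleles on both chromosomes and every control is labelled WT. Nfatc1-Cre acts in the endocardium, the inner lining of the heart, and in the sinus venosus. The paper also traced its activity to cushion mesenchyme that comes from endocardium and to most vessels beneath the epicardium. Heart cells outside these lineages keep the gene. Cdh5-CreERT2 acts in endothelium once tamoxifen is present, and tamoxifen was given to pregnant females at E12.5. Whether the WT embryos of that experiment were exposed to it is not given in the sources used here. Dll4GOF carries an extra copy of Dll4 behind a stop cassette in the Rosa26 locus, in a line derived from a single embryonic stem cell clone, and Tie2-Cre removes the stop in endothelial and blood-forming cells. Further mutant samples of the Dll4flox;Nfatc1-Cre experiment were set aside by the authors partly on their Dll4 level, so the 2 that remain were selected on Dll4 itself. The libraries are of whole tissue, in which fewer cells of a type and less RNA per cell cannot be told apart.

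The integrated stress response begins when kinases that sense amino acid shortage, unfolded proteins, haem deficiency or double-stranded RNA phosphorylate the translation initiation factor eIF2. Most translation then slows, while the messenger RNA of Atf4 is translated more, so that the level of Atf4 RNA is not a direct reading of Atf4 protein. Atf4 pairs with other bZIP proteins and binds C/EBP-ATF response elements in genes for amino acid synthesis, amino acid import and the charging of transfer RNAs, in the mitochondrial folate pathway and in genes that end or divert the response. In heart muscle the program is best known as a response to failing mitochondria.

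The targeted genes were read first. Jag1 was at 21.1, 25.9, 20.9 and 27.4 normalized counts in Jag1flox;Nfatc1-Cre libraries, against 45.7, 45.3, 39.3 and 39.1 in WT. Dll4 was at 1.53 and 1.29 in Dll4flox;Nfatc1-Cre libraries, against 13.2 to 17.8 in WT. In Dll4flox;Cdh5-CreERT2 libraries 2, 3 and 4 it was at 8.11, 20.7 and 9.53, against 23.2 to 28.6 in WT (adjusted p = 0.0507), so library 3 kept most of its Dll4 RNA. In Dll4GOF;Tie2-Cre libraries it was at 38.5 to 42.7, against 31.7 to 35.2 in WT (adjusted p = 0.354). Efnb2 was at 44.4 to 48.4 in Efnb2flox;Nfatc1-Cre libraries, against 55.1 to 80.6 in WT (adjusted p = 0.297). A normalized count is a read count scaled by library size, close to CPM. Libraries held 7827496 to 28464430 reads, and a gene was called when its adjusted p, from limma over all genes of its table, was under 0.05. The share of reads from mitochondrial genes was 2.51 to 3.30% in Jag1flox;Nfatc1-Cre libraries against 2.90 to 3.41% in WT, 4.22 to 4.32% in Dll4flox;Nfatc1-Cre libraries against 4.62 to 5.27% in WT, and 5.60 to 6.55% in Dll4flox;Cdh5-CreERT2 libraries against 6.56 to 7.41% in WT, and its part in the results was not tested. Cardiomyocyte and endothelial defining markers were all measured in each table, while the hepatocyte markers were missing from 4 tables and 2 of 6 were measured in the other. In that experiment, of Dll4flox;Nfatc1-Cre, the 2 summed to 0.456 to 0.753 normalized counts in mutants against 0.486 to 17.9 in WT. The WT libraries thus spread widely in these markers, and the part of this in the results was not tested.

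Letters that match an Atf4 motif were searched for in RefSeq promoter windows on GRCm38.p6, each from 250 bases before to 50 bases after an annotated gene start. Of the 32 genes, 27 had a window, and Aldh1l2, Cth, Slc1a5, Slc7a3 and Slc7a5 had none. The letters TGATGNAA, a form of the C/EBP-ATF response element, searched on both strands, were in the windows of 8 of the 27 (29.6%), against 4.51% of 27025 genes of the reference. The genes were listed for their known link to Atf4, so this share is not independent of the list. The 9 matches in these 8 genes are shown because they are the letters that members of the group share. Each run of 30 bases is read on the strand of the motif, with the motif in capitals.
Trib3: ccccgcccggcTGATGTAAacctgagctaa
Chac1: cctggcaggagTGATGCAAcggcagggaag
Asns: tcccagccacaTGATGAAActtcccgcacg
Vldlr: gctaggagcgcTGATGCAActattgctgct
Nupr1: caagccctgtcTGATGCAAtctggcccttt
Pck2: ctgtaagatacTGATGTAActttgaaggct
Slc1a4: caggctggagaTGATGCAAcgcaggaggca
Slc7a11, first site: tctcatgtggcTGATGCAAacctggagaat
Slc7a11, second site: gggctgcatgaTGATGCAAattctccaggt

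In the order printed, the runs lie at chr2:152344028-152344057 (plus strand), chr2:119351038-119351067 (minus), chr6:7693214-7693243 (minus), chr19:27216809-27216838 (minus), chr7:126625562-126625591 (plus), chr14:55540152-55540181 (minus), chr11:20332699-20332728 (plus), chr3:50443661-50443690 (minus) and chr3:50443642-50443671 (plus). The runs of the Slc7a11 sites overlap. Counted from the RefSeq start of its window, the Asns motif ended 16 bases before the start, the Chac1 motif 186 bases and the Vldlr motif 193 bases before it, while the Trib3 motif began at base 15 of the transcript and the Slc1a4 motif spanned the start. The outermost GENCODE starts differ: counted from those, the motifs of Asns, Vldlr and Nupr1 lie inside the gene, and the Trib3 motif ends 7 bases and the Chac1 motif 173 bases before it. Of the 9 genes that were called after late Dll4 loss, described later, Trib3, Chac1 and Asns held the motif, Slc7a3 had no window, and Atf5, Ddit3, Stc2, Shmt2 and Mthfd2 had no match in theirs. The letters ACGTG, the core that hypoxia-inducible factors bind, were in 8 of the same 27 windows (29.6%), against 21.8% of genes. A match is a description of these letters in this window only.

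Chac1 was examined on its own terms because it lies beside a targeted gene. In GENCODE it is at chr2:119351229-119354381 on the plus strand, 15266 bases after the end of Dll4 (chr2:119325784-119335962, plus strand). Its RefSeq start is base 119351242, and the 230 bases from 250 to 21 before that start, at chr2:119350992-119351221, are shown on the plus strand with the complement of the motif in capitals.
Chac1 upstream: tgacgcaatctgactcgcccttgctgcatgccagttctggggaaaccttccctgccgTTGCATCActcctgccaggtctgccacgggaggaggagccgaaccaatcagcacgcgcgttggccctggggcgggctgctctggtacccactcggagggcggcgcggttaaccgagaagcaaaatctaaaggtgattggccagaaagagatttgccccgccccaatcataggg

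**Figure D1:**
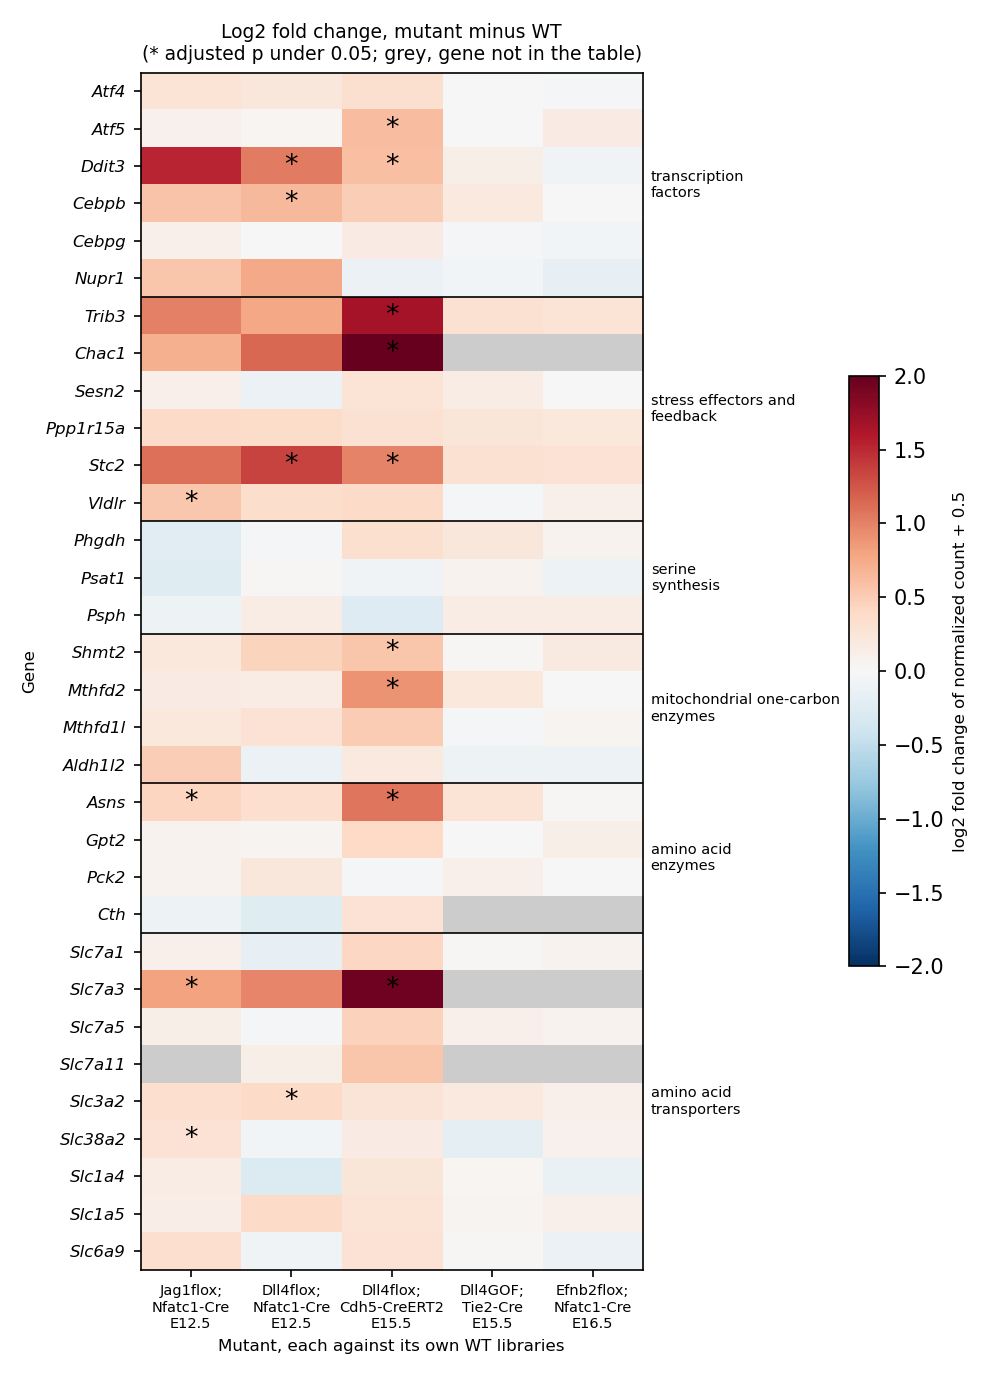
Log2 fold change of normalized count + 0.5, mutant minus WT, for the 32 genes (rows, by role) in the 5 experiments (columns). Asterisks mark an adjusted p under 0.05 and grey marks a gene that is not in a table. The 17 asterisks are all in the 3 columns of Jag1 or Dll4 loss, 9 of them after Cdh5-CreERT2, and none marks a lower level.

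The levels of the group in WT hearts were set by a few genes. Per kilobase of exon, Atf4 ranked first of 31 in the WT libraries of the Jag1 experiment at 61.8 normalized counts per kb, with Phgdh at 33.3 and the glutamine and neutral amino acid carrier Slc38a2 at 29.8. In the E16.5 WT ventricles Slc38a2 ranked first of 28 at 62.8 per kb, ahead of Atf4 at 41.2 and Shmt2 at 39.4. At the low end in the WT hearts of the Jag1 experiment were Slc7a3 at 0.207, Nupr1 at 0.523 and Chac1 at 0.672 per kb. The tables were normalized separately, so levels are compared here within a table only.

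Loss of endocardial Jag1 at E12.5 raised an amino acid carrier, asparagine synthetase and a lipoprotein receptor, while Ddit3, Trib3 and Stc2 had larger differences with larger errors that missed the threshold. Of the 29 genes that did not need the mutant libraries to enter the table, 3 rose (Vldlr, Asns and Slc38a2) and 0 fell, where 1.12% of all genes rose and 0.637% fell (1.75% in all). Slc7a3 also rose, but like Chac1 it passed the filter on low values through mutant libraries alone and is not counted. The median log2 difference over the 29 genes was 0.21, against 0.00 over all genes. In 8 of the 29 every mutant library was above every WT library, where 6.77% of all genes were so, and in 1, Psat1, every mutant library was below, where 7.04% were so.

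Among the transcription factors, Ddit3, whose product CHOP turns a long stress response towards cell death, showed the widest difference. It was at 66.5, 53.8, 19.0 and 17.03 normalized counts in Jag1flox;Nfatc1-Cre libraries 1 to 4, against 9.32, 12.1, 12.2 and 11.2 in WT. All mutant libraries were above all WT libraries, and mutants 1 and 2 stood well above mutants 3 and 4. The log2 difference was 1.52 ± 0.37 (SE) and missed the threshold (adjusted p = 0.0566). Atf4 split the same way, at 222, 197, 152 and 145 in mutants against 139 to 154 in WT, and was not called (0.27 ± 0.12, adjusted p = 0.178). Cebpb, a bZIP partner of Atf4, was at 25.5, 22.7, 16.2 and 18.8 in mutants against 11.3 to 17.005 in WT (0.56 ± 0.15, adjusted p = 0.0651), with mutant 3 inside the WT range. Atf5, Cebpg and Nupr1 were not called either, with log2 differences between 0.08 and 0.55. Part of Cebpb overlaps an exon of Tmem189 on the other strand (312 shared bases), and part of Ddit3 an exon of Mars (68 bases), and since strand in the counting is not stated their reads cannot be told apart there.

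Of the effectors and feedback genes, Vldlr, a lipoprotein receptor, rose. It was at 169, 127, 105 and 125 normalized counts in mutants, against 87.8, 87.5, 82.4 and 100.3 in WT (0.53 ± 0.12, adjusted p = 0.0473), so mutant 3 was the closest to WT. Trib3, a pseudokinase that restrains Atf4 and Ddit3, was at 21.97, 18.7, 12.9 and 8.19 in mutants, against 7.02, 6.57, 6.28 and 7.98 in WT. The groups did not overlap, but mutant 4 was close to the highest WT library (1.01 ± 0.24, adjusted p = 0.0531). Stc2, a secreted glycoprotein, was at 51.4, 31.3, 15.52 and 25.3 in mutants against 12.003, 14.1, 11.2 and 14.2 in WT (1.11 ± 0.27, adjusted p = 0.0557). Chac1, an enzyme that degrades glutathione, rested on 21 to 46 reads in mutants and 20 to 32 in WT, at 2.81, 2.11, 1.28 and 2.46 normalized counts in mutants against 0.859, 1.12, 0.983 and 1.44 in WT (0.71 ± 0.21, adjusted p = 0.0823). Here mutant 3 was inside the WT range. Ppp1r15a, a phosphatase subunit that undoes eIF2 phosphorylation, was at 61.7, 45.9, 43.8 and 27.9 in mutants, the last below all 4 WT libraries at 31.6 to 37.4, and was not called (adjusted p = 0.226). Sesn2, a leucine sensor that restrains mTORC1, differed by 0.10 ± 0.09.

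Asns, which makes asparagine, rose to 39.7, 28.6, 28.8 and 30.6 in mutants, against 22.4, 22.9, 24.3 and 23.7 in WT (0.43 ± 0.10, adjusted p = 0.0495). Slc38a2 rose to 344, 324, 294 and 333 in mutants, against 277, 268, 253 and 256 in WT (0.29 ± 0.06, adjusted p = 0.0390). In both genes the groups were apart in all libraries. Slc7a3, a carrier of cationic amino acids, was at 2.02, 1.42, 1.45 and 2.20 in mutants against 0.691, 0.776, 0.908 and 0.761 in WT, on 18 to 41 reads in mutants and 13 to 24 in WT (0.81 ± 0.17, adjusted p = 0.0401). Slc3a2, the heavy chain that carries several light-chain transporters to the membrane, was at 136, 105, 87.9 and 76.3 in mutants against 74.2 to 81.6 in WT and was not called (0.33 ± 0.14, adjusted p = 0.175). Its mutants 1 to 3 were above all WT libraries and mutant 4 was inside the WT range.

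None of the 3 serine synthesis genes was called by limma. Psat1, the aminotransferase of the pathway, was at 64.9, 54.9, 57.7 and 67.2 in mutants against 72.0, 71.1, 74.7 and 70.1 in WT, with all mutants below all WT libraries, but did not pass the test (−0.24 ± 0.07, adjusted p = 0.0766). Phgdh, which commits glycolytic carbon to serine, was at 70.7, 63.8, 76.8 and 75.3 in mutants against 73.3 to 88.7 in WT, and the groups overlapped (−0.21 ± 0.08, adjusted p = 0.131). The 4 mitochondrial folate genes differed by 0.16 to 0.50 and none was called. Gpt2, Pck2 and Cth, which handle alanine, phosphoenolpyruvate and cystathionine, differed by −0.10 to 0.07.

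The Jag1 result turned on single libraries and on the variance model, with 1 gene called, Slc7a3, when variances did not follow a trend on mean level. The count of the 31 genes called was 4 with all libraries, 0 without mutant 1, 0 without mutant 2, 9 without mutant 3, 7 without mutant 4 (6 up and 1 down), and 0 without any one of WT 1, WT 2, WT 3 or WT 4. Calls over all 13982 genes moved too, from 245 with all libraries to 82, 51, 538 and 416 without mutants 1, 2, 3 and 4. They were 92, 52, 17 and 22 without WT 1, 2, 3 and 4. Without mutants 1 and 2 together, an alternative chosen after seeing the data, 0 of the 31 and 38 of all genes were called. Ddit3 was then at 0.67 (adjusted p = 0.0710) and Stc2 at 0.61 (adjusted p = 0.220).

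**Figure D2:**
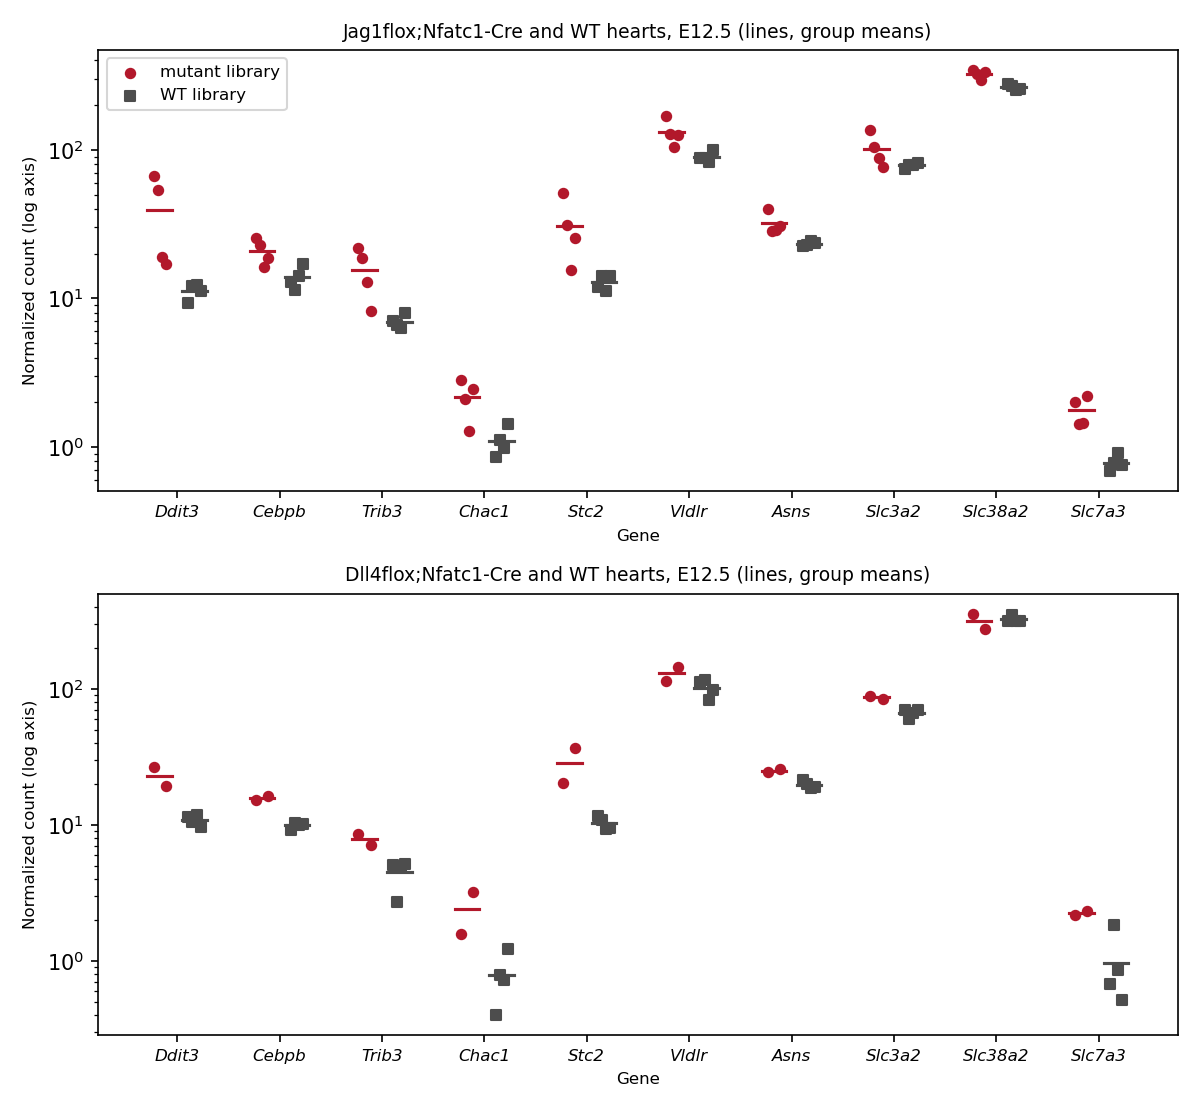
Normalized count on a log axis for 10 genes in the mutant libraries (circles) and WT libraries (squares) of the Jag1flox;Nfatc1-Cre (top) and Dll4flox;Nfatc1-Cre (bottom) experiments, with lines at group means. In the top panel, Ddit3 separates into mutants at 66.5 and 53.8 and mutants at 19.0 and 17.03, all above WT at 9.32 to 12.2, and in the bottom panel Stc2 is at 20.2 and 36.8 in mutants, above WT at 9.38 to 11.7.

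Loss of endocardial Dll4 at the same stage raised a pair of stress transcription factors, a secreted stress protein and a transporter subunit. Of the 30 genes that did not need the mutant libraries to enter the table, 4 rose (Ddit3, Cebpb, Stc2 and Slc3a2) and 0 fell, where 1.31% of all genes rose and 0.86% fell (2.17% in all). The median log2 difference over the 30 was 0.15, against 0.00 over all genes. With 2 mutant libraries, ranges that do not overlap are common, so they are given by gene and not counted. When variances did not follow a trend on mean level, 1 of the 4 calls was kept, that of Cebpb.

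Ddit3 rose to 26.4 and 19.4 normalized counts in Dll4flox;Nfatc1-Cre libraries, against 11.5, 10.4, 11.8 and 9.68 in WT (1.03 ± 0.14, adjusted p = 0.0176). Cebpb rose to 15.3 and 16.4, against 9.21, 10.4, 9.92 and 10.2 in WT (0.65 ± 0.10, adjusted p = 0.0235). In both genes the mutants were clear of every WT library. Atf4 was at 157 and 124 in mutants, against 120.4, 119, 112 and 125 in WT, with mutant 2 inside the WT range (0.23 ± 0.09, adjusted p = 0.197). Atf5 and Cebpg differed by 0.04 ± 0.08 and 0.01 ± 0.07. Nupr1, a small chromatin protein induced by stress, was at 2.39 and 2.66 in mutants against 0.786 to 1.86 in WT and was not called (0.76 ± 0.27, adjusted p = 0.153).

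Stc2 rose to 20.2 and 36.8 in mutants, against 11.7, 10.8, 9.38 and 9.55 in WT (1.36 ± 0.21, adjusted p = 0.0235). The heavy chain gene Slc3a2 rose to 88.5 and 84.5, against 69.7, 59.9, 65.9 and 70.1 in WT (0.38 ± 0.07, adjusted p = 0.0423). The glutamine carrier Slc1a5 was just outside the threshold at 67.0 and 75.5 in mutants, against 49.9 to 57.8 in WT (0.39 ± 0.08, adjusted p = 0.0533). Trib3 was at 8.54 and 7.13 in mutants against 5.10, 2.71, 5.03 and 5.19 in WT, and Chac1 at 1.57 and 3.22 against 0.405 to 1.24 on 34 and 68 reads in mutants and 7 to 27 in WT. Neither was called (adjusted p = 0.126 and 0.107), and Chac1 again entered the table through mutant libraries alone, as Slc7a3 did. Slc38a2, raised after Jag1 loss, was at 355 and 275 in mutants against 315 to 349 in WT, on both sides of the WT range (−0.05 ± 0.10). Slc7a1 and Slc1a4, carriers of cationic and small neutral amino acids, were lower in both mutants than in every WT library, at −0.17 ± 0.07 and −0.27 ± 0.12, and did not pass the test. Shmt2, which loads the mitochondrial folate pool from serine, was at 94.5 and 130.2 in mutants against 75.1 to 90.7 in WT (0.44 ± 0.12, adjusted p = 0.102). The serine synthesis genes differed by −0.04 to 0.15.

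The count of the 32 genes called was 4 with all libraries. It was 2, 0, 3 and 0 without WT 1, 2, 3 and 4. Calls over all 14302 genes numbered 311 with all libraries and 74, 35, 178 and 36 without WT 1, 2, 3 and 4. A fit without a mutant leaves 1 mutant library, assumed to vary as the WT libraries do, so its count against WT is not given. The median log2 difference over the 32 genes was 0.19 with all libraries, 0.27 without mutant 1 and 0.14 without mutant 2. The effects of Jag1 and Dll4 loss at E12.5 were then compared with each other. Of 31 genes in both tables, 0 differed in effect by limma (lowest adjusted p = 0.183, for Slc38a2), and 5 had an unadjusted p under 0.05. Over all 13795 shared genes 2 differed (0.0145%) and 2275 had an unadjusted p under 0.05. Without Dll4flox;Nfatc1-Cre mutant 1, 1 of the 31 differed. For Ddit3 the difference, Jag1 effect minus Dll4 effect, was 0.49 ± 0.52 (SE), and for Stc2 it was −0.25 ± 0.41, each no larger than its own error.

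Induced endothelial loss of Dll4 in E15.5 ventricles raised 2 of 4 mitochondrial folate enzymes, asparagine synthetase, 2 of 6 transcription factors, the feedback gene Trib3 and Stc2. Of the 28 genes that did not need the mutant libraries to enter the table, 7 rose (Atf5, Ddit3, Trib3, Stc2, Shmt2, Mthfd2 and Asns) and 0 fell, where 0.943% of all genes rose and 0.209% fell (1.15% in all). The median log2 difference over the 28 was 0.32, against 0.00 over all genes. In 15 of the 28 all mutant libraries were above all WT libraries, where 6.97% of all genes were so, and in 0 were all below, where 5.98% were so. Chac1 and Slc7a3 also rose but, with Cth and Slc7a11, would not have passed the filter without the mutant libraries. All 9 calls were lost when variances did not follow a trend on mean level.

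Atf5, a relative of Atf4 that acts in the mitochondrial stress response, rose to 29.2, 24.4 and 26.1 normalized counts in Dll4flox;Cdh5-CreERT2 libraries 2, 3 and 4, against 18.2, 17.7, 16.7 and 15.9 in WT (0.62 ± 0.09, adjusted p = 0.0162). Ddit3 rose to 15.49, 13.7 and 13.4, against 9.03, 9.92, 8.32 and 9.34 in WT (0.61 ± 0.11, adjusted p = 0.0257). For both genes the mutants lay close together and above all WT libraries. Atf5 shares 82 exonic bases, and the folate enzyme gene Shmt2 shares 32, with an overlapping gene. Atf4 was at 151, 115 and 128 in mutants against 110.4, 103, 103 and 101 in WT, apart in all libraries but not called (0.32 ± 0.09, adjusted p = 0.111). Cebpb, called after early Dll4 loss, was at 3.74, 3.87 and 3.65 in mutants against 3.48, 3.88, 1.66 and 1.67 in WT, so the WT libraries themselves fell into high and low pairs (0.50 ± 0.26, adjusted p = 0.426).

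Among feedback and effector genes, Trib3 was at 13.5, 5.35 and 11.4 in mutants, against 2.74, 2.73, 2.43 and 2.57 in WT. It rose (1.67 ± 0.25, adjusted p = 0.0162), least in mutant 3. Chac1 was at 6.46, 2.40 and 4.51 in mutants, against 0.846, 0.527, 0.555 and 0.767 in WT, on 66, 19 and 57 reads in mutants and 5 to 12 in WT (1.998 ± 0.29, adjusted p = 0.0162). Mutant 3 was again the lowest of the mutants and above all WT libraries. Stc2 rose to 28.3, 22.7 and 33.1, against 14.9, 12.6, 11.9 and 15.7 in WT (0.99 ± 0.14, adjusted p = 0.0157). Ppp1r15a, Sesn2 and Vldlr differed by 0.31, 0.27 and 0.38 and were not called. After Jag1 loss Dll4 was at 19.1 to 27.7 in mutants and 17.4 to 19.5 in WT. There the Chac1 difference was 0.71 ± 0.21, on few reads, and was not called. Whether the place of Chac1 beside the deleted gene plays a part in its level was not tested.

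Of the 4 mitochondrial folate enzymes 2 rose. Mthfd2, which oxidises the folate-bound carbon unit and has the lowest adjusted p of the group, rose to 54.0, 38.9 and 47.3 in mutants, against 26.8, 24.2, 24.7 and 23.2 in WT (0.89 ± 0.11, adjusted p = 0.00896). Shmt2 rose to 182, 147 and 166, against 113, 119, 103 and 113 in WT (0.55 ± 0.08, adjusted p = 0.0162). Both were apart from WT in every library. Mthfd1l, which releases formate, was at 44.6, 30.9 and 49.5 in mutants against 27.8 to 29.3 in WT (0.51 ± 0.13, adjusted p = 0.0995), and Aldh1l2, which oxidises the same unit to carbon dioxide, overlapped WT (0.20 ± 0.14). Their cytosolic counterparts did not pass the test: of 7 cytosolic folate and nucleotide genes 0 were called by limma and 1 had an unadjusted p under 0.05, with a median of 0.12. The serine synthesis genes that feed the pathway split, with Phgdh at 56.7, 50.5 and 51.8 in mutants against 37.4 to 46.2 in WT (0.32 ± 0.08, adjusted p = 0.105), Psat1 at −0.07 ± 0.06 and Psph, the last step, at −0.27 ± 0.12.

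Asns rose to 44.1, 22.8 and 33.4 in mutants, against 15.4, 16.4, 15.8 and 13.1 in WT (1.07 ± 0.18, adjusted p = 0.0179), with mutant 3 the closest to WT. Of the other amino acid enzymes, Gpt2, Pck2 and Cth differed by 0.40, −0.02 and 0.29 and were not called. All 9 transporter genes had a positive difference, with a median of 0.29, but Slc7a3 alone was called. It was at 5.10, 2.15 and 3.57 in mutants against 0.981, 0.335, 0.384 and 0.497 in WT, on 52, 17 and 45 reads in mutants and 3 to 14 in WT (1.94 ± 0.30, adjusted p = 0.0175). Slc7a5, the light chain that imports leucine together with Slc3a2, was at 69.7, 51.3 and 77.2 in mutants against 46.0 to 48.7 in WT and missed the threshold (0.46 ± 0.11, adjusted p = 0.0874). Slc7a11, which exchanges cystine for glutamate, had 5 to 20 reads in mutants and 3 to 13 in WT, and a difference was not detectable at this depth (0.55 ± 0.32, adjusted p = 0.480).

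**Figure D3:**
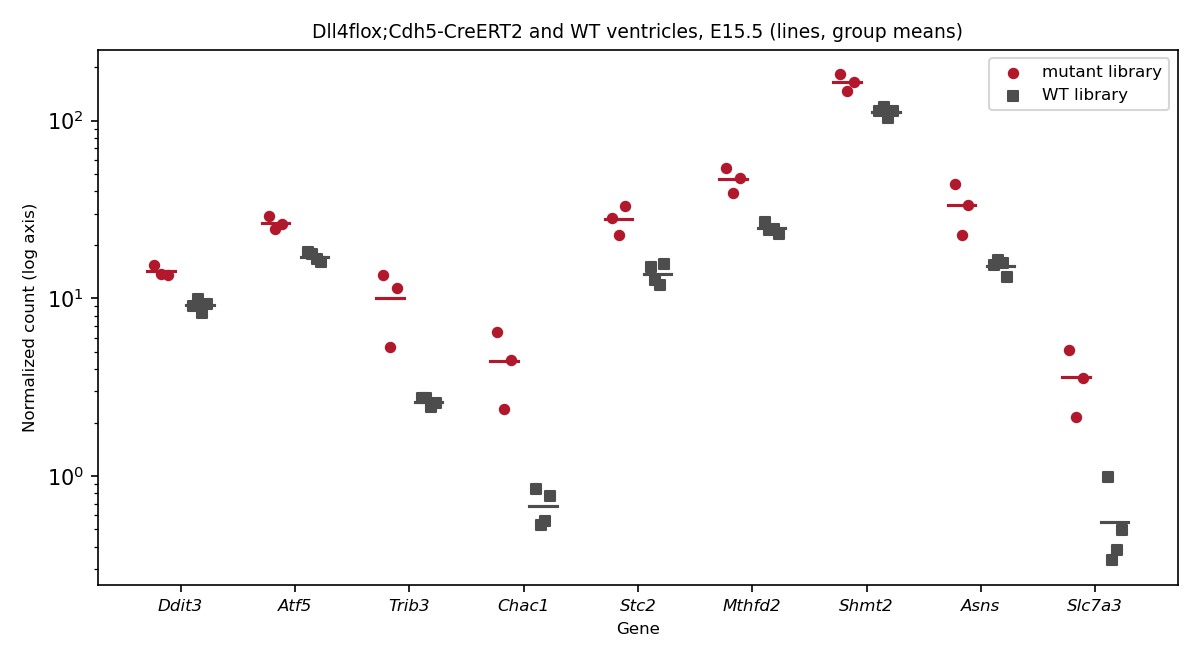
Normalized count on a log axis for the 9 genes called after late Dll4 loss, in Dll4flox;Cdh5-CreERT2 libraries (circles) and WT libraries (squares) at E15.5, with lines at group means. No mutant point lies within the WT range of its gene, and the lowest Trib3, Chac1, Asns and Slc7a3 mutant points (5.35, 2.40, 22.8 and 2.15) are all library 3. The genes were chosen by their calls in these same libraries, so the separation is not a separate result.

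Library 3, the lowest of the mutants in Atf5, Trib3, Chac1, Stc2, Mthfd2, Shmt2, Asns and Slc7a3, is also the mutant library with most Dll4 RNA. Those are the genes called in these same libraries, other than Ddit3, which was lowest in mutant 4. Library 3 also held the fewest reads, 8262124, against 10310816 and 12539286 in mutants 2 and 4. Its mitochondrial share was the highest of the mutants, at 6.55% against 6.12 and 5.60%. Averaged over the 28 genes found in all tables, the log2 difference from the WT mean was 0.55, 0.23 and 0.45 in mutants 2, 3 and 4, with Dll4 at 8.11, 20.7 and 9.53. With 3 libraries this is a description only, and the parts of Dll4 level, depth and mitochondrial share were not tested. The count of the 32 genes called was 9 with all libraries, 14 without mutant 3, 1 without mutant 2 and 1 without WT 3. Calls over all 13897 genes moved too, from 160 with all libraries to 574 without mutant 3, 6 without mutant 2 and 11 without WT 3. Mthfd2 was the gene kept without mutant 2 and without WT 3.

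Gain of Dll4 at the same stage gave no call in the group. Of 28 genes 0 were called by limma in Dll4GOF;Tie2-Cre ventricles, where 0% of all genes rose or fell, and 6 of the 28, with 1280 of all 13737 genes, had an unadjusted p under 0.05. Their median log2 difference was 0.06, against 0.00 over all genes, and 2 of the 28 (Phgdh and Asns) had all mutant libraries above all WT libraries, where 4.56% of all genes were so. In 0 of the 28 were all mutant libraries below, where 4.39% of all genes were so. Phgdh was at 46.2, 51.5 and 52.6 in mutants against 42.4, 39.2, 44.9 and 44.6 in WT (0.23 ± 0.07, adjusted p = 0.384). Asns was at 13.5, 15.05 and 14.4 in mutants against 10.8, 12.2, 11.3 and 12.9 in WT (0.27 ± 0.09, adjusted p = 0.432). Library 4 stood above the other mutants and WT in Trib3 and Stc2, with Trib3 at 5.70 (3.26 and 2.10 in the other mutants, 2.60 to 2.77 in WT) and Stc2 at 31.2 (16.9 and 12.9 in the other mutants, 12.47 to 24.9 in WT).

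Gain and late loss of Dll4 were compared directly. Of 28 shared genes, 1 differed in effect, where 0.324% of 13562 genes did. Shmt2 was at 126, 111 and 125 in Dll4GOF;Tie2-Cre libraries against 126, 119, 113 and 118 in WT, and its gain effect minus its loss effect was −0.54 ± 0.10 (adjusted p = 0.0356). For Mthfd2 the difference of effects was −0.68 ± 0.15 (adjusted p = 0.0578), for Atf5 −0.63 ± 0.14 (adjusted p = 0.0727), for Asns −0.80 ± 0.22 (adjusted p = 0.131) and for Trib3 −1.37 ± 0.38 (adjusted p = 0.140). The Shmt2 call was lost when any single library other than Dll4flox;Cdh5-CreERT2 mutant 3 was left out, and without that mutant 10 of the 28 differed. The share of all genes that differed without that mutant was not computed.

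Loss of endocardial Efnb2 at E16.5 gave no call in the group. Of 28 genes 0 passed the test by limma, 0 by edgeR and 0 by DESeq2 on recovered reads, and 1, Shmt2, with 858 of all 13527 genes, had an unadjusted p under 0.05 by limma, where 0.0296% of all genes rose and 0% fell. The median log2 difference was 0.06, against 0.00 over all genes. Shmt2 was at 138, 134, 154 and 131 in mutants against 125, 117, 124 and 124 in WT (0.18 ± 0.06, adjusted p = 0.678), and Trib3 at 2.96, 3.03, 2.87 and 3.36 against 2.62, 2.10, 2.81 and 2.31 in WT (0.27 ± 0.16, adjusted p = 0.831). These 2 were the genes with all mutants above all WT libraries, where 2.01% of all genes were so, and 0 had all mutants below, where 1.63% were so. Ddit3 was at 8.06 to 9.93 in mutants and 8.67 to 10.4 in WT, with a difference of −0.08 and a 95% interval of −0.32 to 0.17. The differences between this effect and those after Jag1 or Dll4 loss were not tested.

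**Figure D4:**
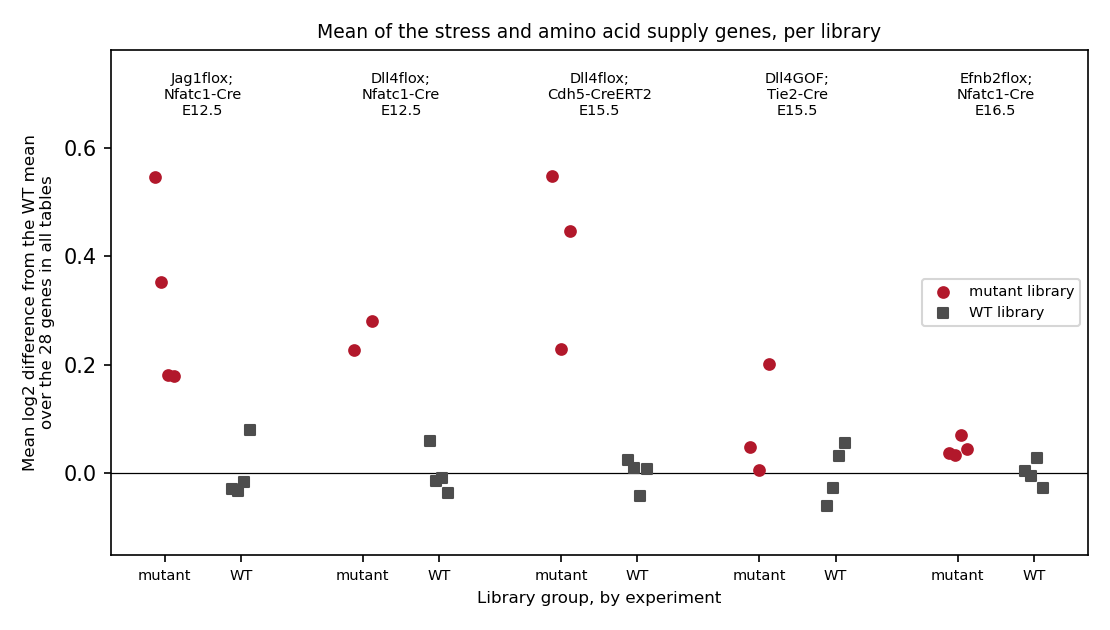
Mean log2 difference from the WT mean over the 28 genes found in all 5 tables, per library, for mutants (circles) and WT (squares) of each experiment. Jag1flox;Nfatc1-Cre mutants are at 0.55, 0.35, 0.18 and 0.18, the Dll4flox;Nfatc1-Cre mutants at 0.23 and 0.28, and the Efnb2flox;Nfatc1-Cre mutants at 0.03 to 0.07, while WT libraries lie between −0.06 and 0.08.

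Genes upstream of Atf4 and in neighbouring stress pathways showed few calls in the same libraries. Of 13 genes for the eIF2 kinases, eIF2, its exchange factor and a phosphatase subunit, 0 were called by limma in each of the 5 experiments. Their medians were −0.02, −0.08 and 0.10 after Jag1 loss, early Dll4 loss and late Dll4 loss, and 3, 3 and 0 of them had an unadjusted p under 0.05. Of 17 genes of the endoplasmic reticulum unfolded protein response, which has branches that do not use Atf4, 0 were called in each, with medians of 0.07, −0.02 and 0.03 and with 4, 2 and 3 at an unadjusted p under 0.05 in the same order. Positive differences were seen in 16, 6 and 14 of these 17, and in 5, 3 and 9 of the 13 eIF2 genes. Over all genes 50.9, 50.9 and 49.8% were positive. Of 13 genes for cytosolic transfer RNA charging, 1 was called, in 1 experiment: Sars rose after late Dll4 loss (0.34 ± 0.07, adjusted p = 0.0345). There all 13 had a positive difference, the median was 0.18, and 9, with 1975 of all 13897 genes, had an unadjusted p under 0.05. After Jag1 loss and early Dll4 loss 3 and 5 of the 13 had one, with medians of 0.03 and −0.04. Of 10 amino acid sensing genes, Ddit4, an mTORC1 inhibitor that stress and hypoxia induce, rose after early Dll4 loss (1.07 ± 0.10, adjusted p = 0.00310) and Castor2, an arginine sensor, fell (−0.33 ± 0.06, adjusted p = 0.0422). Gdf15, a secreted stress hormone, averaged 3.16 normalized counts in late Dll4 mutants and 1.05 in WT, and was not called (1.18 ± 0.30, adjusted p = 0.102).

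Hypoxia genes moved in the same comparisons. Of 10 such genes, 5 rose after Jag1 loss, 7 after early Dll4 loss, 3 after late Dll4 loss and 0 in each of the other experiments, with medians of 0.89, 1.13, 0.54, 0.21 and 0.17. Their summed level was 3126 to 4489 in Jag1flox;Nfatc1-Cre libraries against 2528 to 2895 in WT, 2943 to 3626 in Dll4flox;Nfatc1-Cre libraries against 2208 to 2492 in WT, and 3025 to 3619 in Dll4flox;Cdh5-CreERT2 libraries against 2460 to 2746 in WT. Vegfa, the vessel growth factor, was called in all 3, at 1.11 ± 0.23, 1.26 ± 0.10 and 0.85 ± 0.11. After late Dll4 loss the hypoxia median was lower than after the E12.5 losses while the median of the stress and amino acid genes was higher, a difference that was not tested, and the part of hypoxia in the results was not tested.

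**Figure D5:**
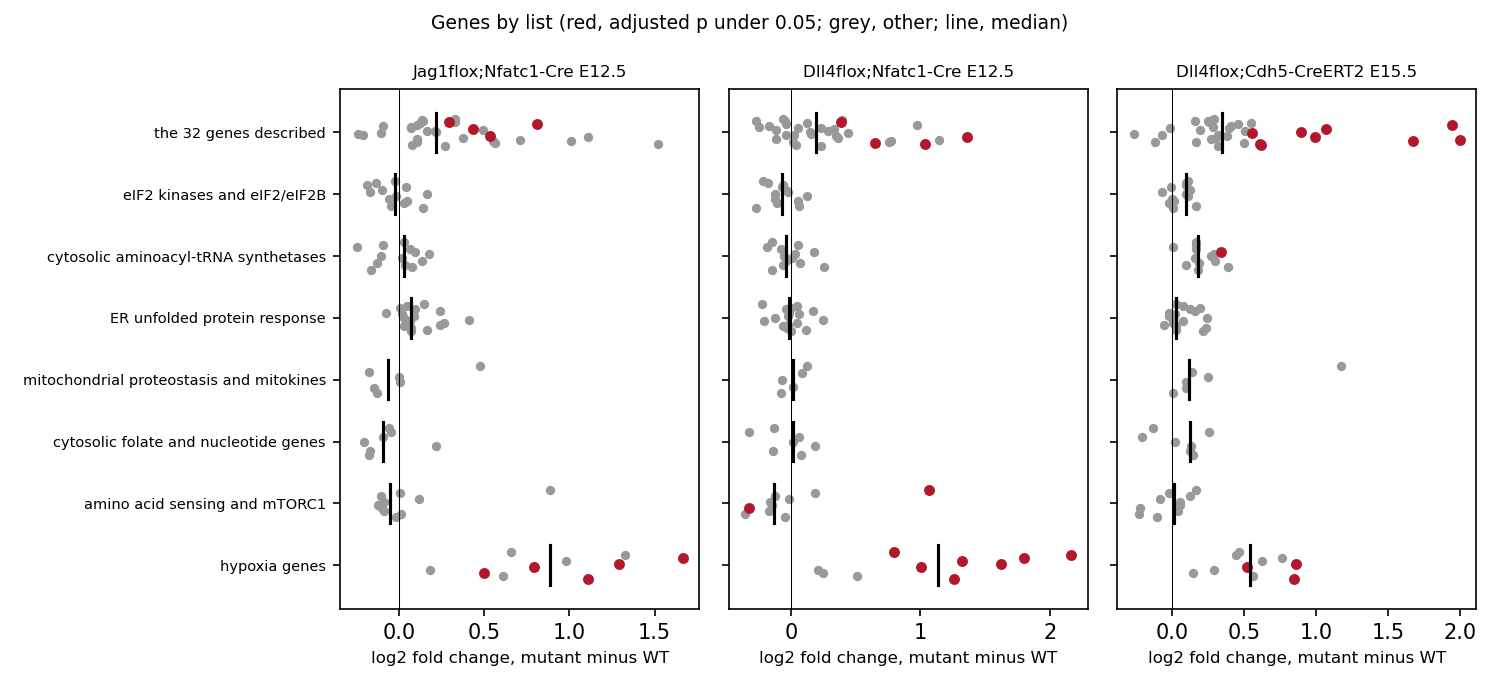
Log2 fold change, mutant minus WT, of the 32 genes and of 7 neighbouring lists (rows) after Jag1 loss, early Dll4 loss and late Dll4 loss (panels), with each point a gene, red for an adjusted p under 0.05, and a line at each median. The eIF2 and unfolded protein response rows have medians between −0.08 and 0.10 and no red point, and the hypoxia row has medians of 0.89, 1.13 and 0.54.

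Markers of other cells shifted in part. Of 7 endothelial markers 0 were called by limma after Jag1 loss or early Dll4 loss (1 and 2 at an unadjusted p under 0.05). After late Dll4 loss 2 (Erg and Emcn) rose, and 5 of the 7, with 1975 of all 13897 genes, had an unadjusted p under 0.05. There 6 of the 7 had a positive difference, the median was 0.29, and the summed level was 1022 to 1255 in mutants against 922 to 1003 in WT. Of 7 cardiomyocyte markers 0 were called in these 3 experiments (2, 3 and 1 at an unadjusted p under 0.05). Of 6 epicardial markers, 2 (Wt1 and Msln) rose after Jag1 loss, 1 (Wt1) after early Dll4 loss and 1 (Wt1) after late Dll4 loss, and the summed level was 384 to 413 in mutants against 293 to 389.9 in WT, 370.5 to 395 against 323 to 369, and 139.9 to 181 against 167 to 205, in that order of experiments. After late Dll4 loss the other 5 epicardial markers had negative differences, of −0.43 to −0.03, none called, and the list median was −0.32. Of the red blood cell markers reported here, Hemgn rose after Jag1 loss and Slc4a1 after late Dll4 loss, where Hba-a1, Hbb-bt and Alas2 were not called at −0.26, −0.43 and −0.44. After early Dll4 loss none was called, with Hba-a1, Hbb-bt, Alas2 and Slc4a1 at −0.77, −1.52, −1.15 and −0.82. Among the rest, 1 macrophage marker of 5 (Lyz2), 1 platelet marker of 4 (Pf4) and 1 smooth muscle marker of 5 (Acta2) fell after Jag1 loss, and 1 smooth muscle marker (Cnn1) fell after early Dll4 loss. After early Dll4 loss 0 of 4 platelet markers were called by limma, but all 4 had an unadjusted p under 0.05, with a median of −1.47 and a summed level of 11.96 to 15.4 in mutants against 26.9 to 70.3 in WT. Likewise 0 of the 3 neutrophil markers measured were called and all 3 had an unadjusted p under 0.05, with a median of 1.34 and a summed level of 5.77 to 7.99 in mutants against 0.786 to 3.05 in WT. After late Dll4 loss 0 of 3 neutrophil markers were called and 2 had an unadjusted p under 0.05, at 4.98 to 8.50 in mutants against 1.49 to 4.77 in WT in sum, and 0 of 5 macrophage markers were called and 3 had an unadjusted p under 0.05, with a median of 0.30. The part of these cells in the results was not tested.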

How the data were processed

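Upstream, the authors used CASAVA 1.8.2 for demultiplexing, cutadapt 1.6 for adapters and FastQC for quality, estimated counts on the GRCm38 transcriptome with RSEM (1.2.3 per the labels, another release in the methods) and normalized them with limma. The deposited signal is a normalized count per gene: a rounded read count plus 0.5, scaled to CPM. Undoing the scaling gave whole reads for 100% of values (tolerance 1e-06). No deposited column went unmapped. Symbols and coordinates came from GENCODE on GRCm38.

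Each mutant group was tested against its own WT libraries by limma 3.58.1 (R 4.3.3, variances following a trend on mean level) on log2(normalized count + 0.5), so low genes have understated fold changes. P-values were adjusted by Benjamini-Hochberg over all genes. A filter for 1 CPM or more in a number of libraries equal to the smaller group removed 0 genes. Differences of effects used an interaction term with an intercept per table. Errors are SE. edgeR 4.0.16 and DESeq2 1.42.0 were run on reads recovered from the Efnb2 table alone. The test was tested on simulated data. Libraries are separate pools or embryos.

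The genes and lists were chosen with earlier results of these data known. Named genes were those called in any experiment, those with the widest difference per role, Chac1 with Dll4, and up to 4 called genes of each neighbouring list. Alternatives covered normalization, variance model, pseudocount, low-value filter, a replicate block and each library left out. A red blood cell marker and the summed level of its list are not reported here.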

Additional observations from a re-analysis of the deposited data

Results flagged for a closer look

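Each called gene of the group was checked for a library far from the others in groups of 4, and 0 of 21 groups held such a library. The Dll4 loss mutant groups, of 2 and 3 libraries, were too small for this check. For the genes called there only the WT libraries were checked, so a mutant library far from the others could not be found. The effect on Shmt2 differed between gain and late loss of Dll4, by −0.54 on the log2 scale (0.02 after gain, 0.55 after loss, limma adjusted p = 0.0356). Of 32 genes compared between the Dll4 loss experiments, 6 had every mutant library on opposite sides of its WT mean at the 2 stages. The share of all genes with this pattern was not computed, so whether 6 of 32 is many cannot be judged. The late minus early difference was 0.53 for Cth, 0.36 for Phgdh, 0.52 for Slc1a4, 0.35 for Slc6a9 and 0.58 for Slc7a1, all above WT in late mutants and below WT in early mutants. It was −0.42 for Psph, which was below WT in late mutants and above WT in early mutants. These 6 differences were not tested, none of the 6 genes was called in either experiment, and tissue, stage and Cre driver cannot be told apart between them.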

How the results depend on the processing

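The counts of genes called depended on the settings. After Jag1 loss (4) the count was 1 with no mean-variance trend, 9 with library quality weights (8 up and Psat1 down), 2 with no pseudocount, 0 with the replicate block, 0 without mutants 1 and 2 and 0 to 9 when each library was left out. After early Dll4 loss (4) it was 1 with no trend, 0 with the replicate block and 0 to 7 over the libraries left out. After late Dll4 loss (9) it was 0 with no trend, 19 with quality weights, 8 with the replicate block, and 1 to 14 over the libraries left out. It was 0 after Dll4 gain and Efnb2 loss in each setting run. Restricting the test to the upper 75% of genes by mean left out Trib3, Chac1 and Slc7a3 of the late calls. For differences of effects, Jag1 against early Dll4 loss gave 0 to 1 over the libraries left out. Dll4 gain against late loss (1) gave 0 with no trend and 0 to 10. For these alternatives of the differences of effects, the count over all genes was not computed. Over all genes, no trend called 48, 56 and 5 genes after Jag1, early Dll4 and late Dll4 loss, where the reported test called 245, 311 and 160. In the same order, quality weights called 640, 162 and 791 of all genes, and the replicate block 77, 31 and 180. Over the settings run, the genes of the group called or near the threshold in the reported test were followed. Of their values, 383 kept their side of the threshold, 96 lost it, 23 gained it and 0 changed sign. Genes further from the threshold were not in this tally. The cause of these changes was not tested. Whether replicate numbers pair the samples was not settled. The correlation of same-numbered deviations ran between −0.10 and 0.31 after Jag1 loss, −0.04 and 0.12 after early Dll4 loss and −0.06 and 0.24 after late Dll4 loss. It ran between −0.14 and 0.37 after Dll4 gain and −0.18 and 0.36 after Efnb2 loss. Some samples, but not every sample, correlated best with their own number, and such correlations cannot show whether a litter or batch was shared. Depth limits Chac1, Slc7a3, Slc7a11, Cth and Nupr1, whose libraries held as few as 3 reads. Strand in the counting is not stated, and Slc6a9 shares 1429 exonic bases with Ccdc24.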
